A study of Mus musculus and Mus musculus
Oryx dammah with 30 samples.

Results

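The Eif1a-like genes described here are 4 members picked by gene name: Gm2016, Gm5662 and Gm8332, which lie together on chromosome 12, and Eif1a, the related gene outside that cluster. They are 4 of the 53023 genes listed for C2C12 NT embryos and for the replication experiment, and 4 of the 55364 listed for the two-cell experiment. The names were chosen with the response to α-amanitin known, so their values in the comparisons with α-amanitin are given as a description with no test. RNA-seq was performed on pools of mouse embryos that had received 2 C2C12 cells each by nuclear transfer (NT). The donor line, C2C12, consists of myoblasts and was established from the C3H strain. The inhibitor α-amanitin stops transcription by RNA polymerase II (Pol II).

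All groups shared BDF1 recipient embryos (C57BL/6 oocytes fertilised with DBA/2 sperm), 0.1 μg/mL demecolcine, a drug that stops cells at division, and 24 h of culture after NT. Four-cell embryos received C2C12 cells at 46 hours post insemination (hpi) and were cultured without (3 pools of 3 embryos) or with (3 pools of 3) 2.5 μg/mL α-amanitin. In the replication experiment, 2 groups of four-cell NT embryos named D and DR (3 pools of 4 embryos each, no α-amanitin) received C2C12 cells before or after the embryo had replicated its DNA, and the labels do not say which letter stands for which. In the two-cell experiment, early and late two-cell embryos (NT from 21 hpi and from 30 hpi) were cultured without (6 pools of 5) or with (6 pools of 5) the same dose of α-amanitin. The libraries of the two-cell table form a set with R in the name and a set without it, 3 pools of each treatment in each, and the names do not say which set is early and which late. The C57BL/6 and DBA/2 mice were 8 to 10 weeks old. The recipient embryo contributed its own nuclei and mRNA to each pool, so the values are those of embryo and donor nuclei together, and fewer cells and less RNA per cell cannot be told apart in such pools.

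eIF1A is a translation initiation factor that binds the small ribosomal subunit beside the initiator tRNA and, with eIF1, lets the ribosome scan the mRNA for its start codon. Mammals carry an X-linked gene for it, Eif1ax, and the mouse also has Eif1a on an autosome and a group of Eif1a-like genes on chromosome 12. Several of the latter are known as transcripts that appear when the embryonic genome is first transcribed, at the two-cell stage.

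The libraries of the C2C12 NT embryos held 1136771 to 3101002 counted reads, and those of the other mouse experiments about 2603950 to 19181340. Of the 12 oocyte and cleavage-stage genes, 12 were found in at least 1 library of every group, with summed levels between 1728 and 16209 FPKM (fragments per kilobase of exon, relative to the counted fragments of the library). In the C2C12 and replication tables this sum was mostly Dppa3, with group means of 3719 to 13809 FPKM, while others such as Zar1 stayed at or below 3.36 FPKM in any library. By treatment, the sum was at 8994 to 9998 FPKM without and 12264 to 16209 with it in four-cell NT embryos of the C2C12 table, and at 7501 to 12384 without and 1728 to 8149 with it in two-cell NT embryos, where the ranges overlap. The part of this in the results was not tested. Of the 12 markers of C2C12 cells, Pax7 was at 0 in all 24 libraries, and 6 of the 12 were at 0 in each untreated four-cell library of the C2C12 table. Their summed level ran from 8.7 to 2233 FPKM, and S100a4 alone reached 2177 FPKM. The 6 cumulus cell markers summed to at most 4.94 FPKM in any library. No libraries held identical values. Across genes, log2(FPKM + 1) of the treated two-cell libraries correlated at r = 0.638 to 0.700 between the sets with and without R, against 0.885 to 0.937 within a set and 0.854 to 0.960 among the untreated ones. The treated libraries of the set with R also had the fewest genes above 0 of their table, 20573 to 22351 against 23573 to 28270 in the others, so the 2 sets are also given apart. Library D1 of group D stood apart for the genes described here, and results that rest on it are given with and without it.

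The coding sequence was compared first, since it sets how well reads of these genes can be told apart. In GENCODE vM21 (mm10, GRCm38), Gm2016 lies at chr12:87874072-87877859 on the plus strand, Gm8332 at chr12:88249666-88250100 on the minus strand and Gm5662 at chr12:88270640-88274500 on the minus strand, so the 3 members span 400429 bases. Gm2016 and Gm5662 have 2 exons each, in transcripts of 1766 and 1840 bases. Gm8332 is a single exon of 435 bases with no annotated untranslated part, and RefSeq lists it as a pseudogene. Eif1a lies on chromosome 18 at chr18:46597701-46616456, where its 3-exon transcript has 2865 bases. All 4 members have a coding sequence of 432 bases without the stop codon.

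The stretch of coding bases 241 to 432 is printed here because most of the differences among the 3 chromosome 12 members fall in it. It lies in 1 exon of each gene, at chr12:87876825-87877016 (plus strand) in Gm2016, chr12:88271557-88271748 (minus strand) in Gm5662 and chr12:88249669-88249860 (minus strand) in Gm8332, and is written 5′ to 3′ on the coding strand from GENCODE vM21. Capitals mark the bases that differ from Gm2016.

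Gm2016: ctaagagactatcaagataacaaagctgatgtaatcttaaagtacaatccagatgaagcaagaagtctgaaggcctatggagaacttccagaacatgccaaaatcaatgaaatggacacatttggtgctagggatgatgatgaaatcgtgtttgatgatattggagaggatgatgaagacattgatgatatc
Gm5662: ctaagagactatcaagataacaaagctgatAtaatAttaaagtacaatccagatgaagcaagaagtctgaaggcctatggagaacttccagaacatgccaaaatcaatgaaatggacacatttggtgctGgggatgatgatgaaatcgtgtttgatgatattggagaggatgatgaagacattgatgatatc
Gm8332: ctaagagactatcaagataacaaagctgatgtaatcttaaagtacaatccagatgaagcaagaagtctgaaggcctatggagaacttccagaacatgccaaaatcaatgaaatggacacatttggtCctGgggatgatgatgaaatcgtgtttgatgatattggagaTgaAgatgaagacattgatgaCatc

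Counted from 1 at the A of the start codon, Gm5662 differed from Gm2016 at 4 of the 432 bases, by the substitutions T63A, G271A, C276A and A370G. Gm8332 differed from Gm2016 at 6 bases, by T63A, G367C, A370G, G408T, T411A and T429C. A pair of these, T63A and A370G, was common to Gm5662 and Gm8332, so that the latter also differed from each other at 6 bases. Identity between the 3 chromosome 12 members was thus 98.6% to 99.1%, and between each of them and Eif1a 94.2% to 95.1%.

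A search of all GENCODE coding sequences found 18 genes at least 80% identical to a member, of which 16 lie on chromosome 12 within 829306 bases, from Gm5788 to Gm5039. The 13 that are not members are BB287469, Gm16368, Gm2022, Gm2035, Gm2056, Gm2075, Gm21319, Gm21936, Gm4027, Gm5039, Gm5788, Gm6803 and Gm8300, and 6 of them lie between Gm2016 and Gm5662. Outside the cluster the search returned Eif1a and Eif1ax, the latter 84.9% to 85.7% identical to the members. Of the 16 genes on chromosome 12, 9 are single exons of 435 bases, as Gm8332 is.

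Reads of these genes cannot always be placed. Of all 50-base windows of the Gm2016 transcript, 81.3% also occur in another gene, and 75.2% in Gm5662. The share was 77.9% for Gm5662 and 100% for Gm8332, but 4.0% for Eif1a and 0.0% for Eif1ax. Among the other chromosome 12 genes it was lowest for Gm21319 (13.6%), Gm5039 (17.3%) and Gm8300 (26.6%) and highest for Gm2022 (97.2%). The levels of Gm2016, Gm5662 and Gm8332 are therefore uncertain as levels of single genes, since the counting could split shared reads among them, and they are not independent measurements of each other or of the other 13 genes.

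**Figure D1:**
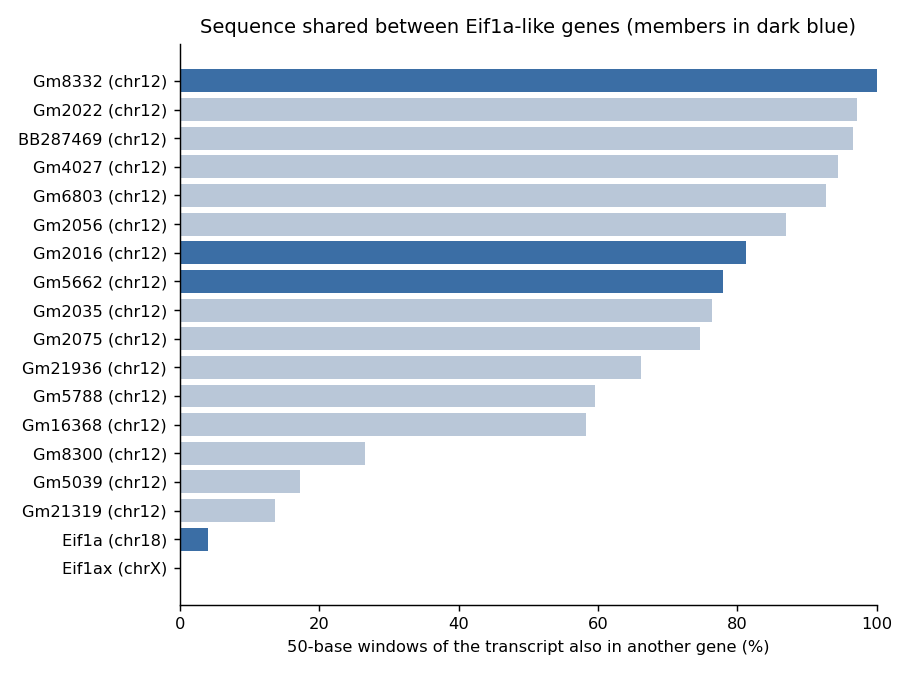
Share of the 50-base windows of each transcript that also occur in the transcripts of another gene (x axis, percent), for the 18 Eif1a-like genes (y axis, chromosome in brackets). Gm8332 has no window of its own (100%), while Eif1a shares 4.0% and Eif1ax 0.0%.

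The comparisons with α-amanitin ask which RNAs depend on transcription by Pol II after NT. In four-cell NT embryos without α-amanitin all 4 members were present, and with α-amanitin the 3 on chromosome 12 were nearly gone. Gm2016 was at 61.9, 57.3 and 67.0 FPKM without α-amanitin, against 0.365, 0 and 0 FPKM with it. Gm5662 was at 51.5, 50.8 and 54.3 FPKM without it, against 0, 0.478 and 0 FPKM with it. Gm8332 was at 35.3, 77.9 and 17.0 FPKM without it and at 0 in the 3 libraries with it. The untreated libraries lay above the treated ones for each of these genes. The untreated means were 62.1 ± 4.89 FPKM for Gm2016, 52.2 ± 1.84 for Gm5662 and 43.4 ± 31.2 for Gm8332 (SD, n = 3 each), so that Gm8332 varied most.

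As reads, these were 690 reads of Gm2016 over the 3 untreated libraries and 2 over the 3 treated ones, a 321-fold difference in RPM (reads per 1000000 counted reads) with an exact 95% interval from 88.4 to 2652. Gm5662 had 603 reads against 1, a ratio of 560 with an interval from 100 to 22166. Gm8332 had 113 reads against 0, which puts the untreated group at least 35-fold higher if the treated group is set to 3 reads over the group. The intervals and this floor cover counting error only, and PCR copies were not marked.

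Eif1a kept a low but measurable level with α-amanitin. It was at 269, 175 and 274 FPKM without α-amanitin and at 18.5, 8.56 and 4.37 FPKM with it, from 165, 28 and 20 reads. The groups did not overlap, and the means differed 22.8-fold (239 ± 55.7 against 10.5 ± 7.25 FPKM, SD, n = 3 each). Among the members its level without α-amanitin was the highest, with Gm2016 at 0.230 to 0.327 of it in the same library. Gm2016 lay above Gm5662 in each of these 3 libraries, with a ratio of Gm5662 to Gm2016 from 0.810 to 0.887, whereas the ratio of Gm8332 to Gm2016 ran from 0.254 to 1.36, so that Gm8332 cannot be placed in the order.

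On the log2(FPKM + 1) scale, which understates the change of genes near 0, the differences without minus with α-amanitin were 5.83 ± 0.36 (SE) for Gm2016, 5.54 ± 0.37 for Gm5662, 5.22 ± 0.55 for Gm8332 and 4.56 ± 0.46 for Eif1a. They ranked 1, 3, 5 and 22 of 9884 genes tested, where the median of all genes was 0.37. For 4 of 4 members each untreated library lay above each treated one, as for 27.6% of all genes tested, and nothing is read from this since the members were chosen with this contrast known.

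**Figure D2:**
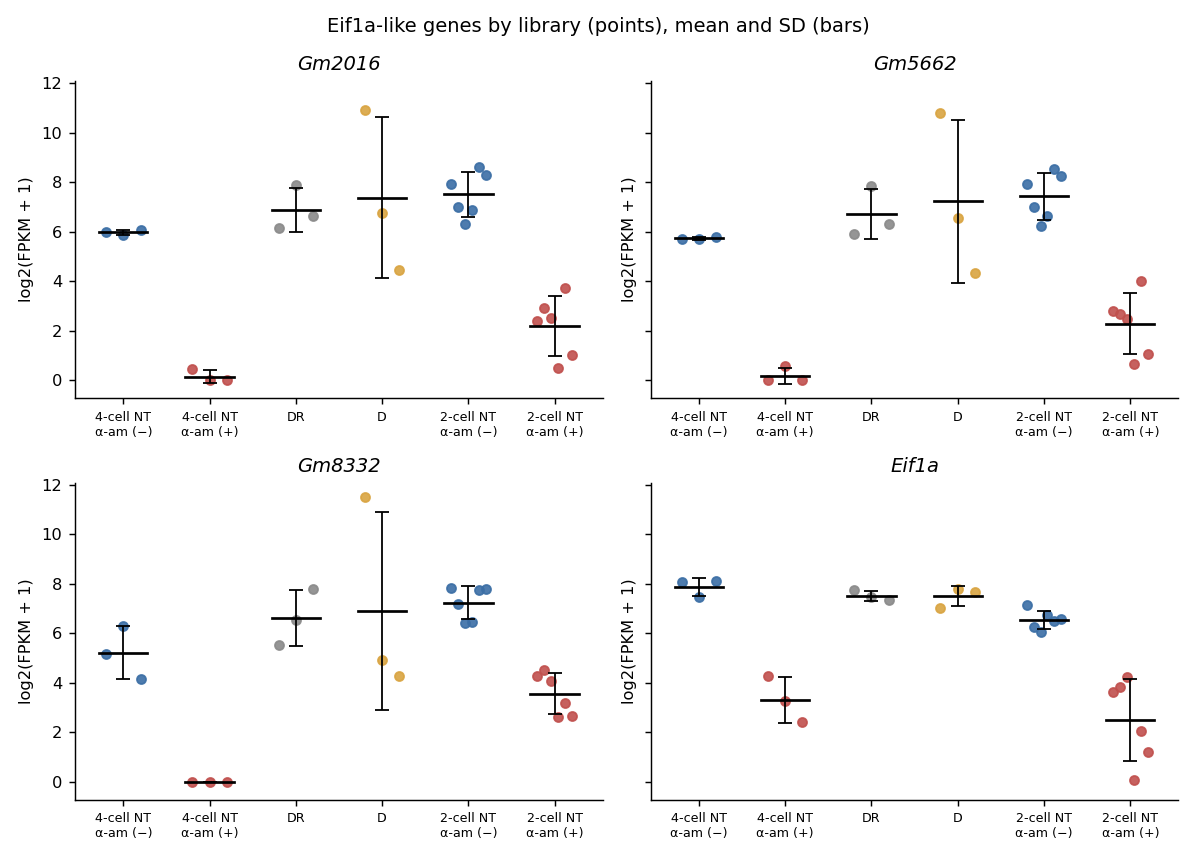
Level of each member as log2(FPKM + 1), as deposited, in each library (points) of the 6 groups (x axis), with the mean and SD of the group as bars. In four-cell and two-cell NT embryos the untreated libraries lie above the treated ones for each gene, and library D1 carries the highest value of Gm2016, Gm5662 and Gm8332.

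Among the other 13 Eif1a-like genes of chromosome 12, 8 passed the filter of at least 1 FPKM in at least 3 libraries. By limma's test over all genes with Benjamini-Hochberg adjustment, 4 of the 8 were higher without α-amanitin (11.1% of all genes tested were called in that direction), and 0 were lower (1.13% of all genes tested). Their median difference was 2.58 against 0.37 for all genes. Of the 8, 6 had no treated library at 1 FPKM and so passed the filter through the untreated group, where they had to differ. The 4 that were called are all among these 6, so their calls are a description and support nothing. These genes also share sequence with the members and are no independent evidence of their response.

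The 4 that were called were Gm8300, Gm2022, Gm2035 and Gm6803. Gm8300, the chromosome 12 gene with the largest part of its transcript to itself among these 4, was at 34.4, 11.4 and 67.4 FPKM without α-amanitin and at 0 in the 3 treated libraries. It had 459 reads against 0, which makes it at least 142-fold higher. Gm2022 and Gm2035 were also at 0 in the treated group, with 48 and 86 reads over the untreated one. Without any 1 of the 3 untreated libraries, 2 of the 13 genes passed the filter and 0 were called, since a gene found in 2 libraries cannot pass a filter that asks for 3.

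Relative to the counted reads of its library, Gm5788, at the end of the cluster, did not follow. No spike-ins are listed for these libraries, so a fall shared by most RNAs would not show in FPKM. It was at 40.4, 23.9 and 39.3 FPKM without α-amanitin and at 39.3, 48.5 and 21.7 FPKM with it, so the groups overlapped (log2 difference −0.04 ± 0.37, adjusted p = 0.956 by limma). It accounted for 92 of the 103 reads of the 16 chromosome 12 genes in the treated libraries. The 5 genes below the filter, BB287469, Gm16368, Gm2056, Gm21319 and Gm4027, reached at most 3.77 FPKM in any of these 6 libraries.

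Eif1ax, the X-linked gene for the same factor, was at 42.4, 62.8 and 46.5 FPKM without α-amanitin and at 55.5, 47.1 and 41.1 FPKM with it. The groups overlapped, and the log2 difference was 0.07 ± 0.27 (adjusted p = 0.896 by limma). As for Gm5788, FPKM without spike-ins would not show a fall shared by most RNAs. Of 13 genes for eIF1A itself and factors that act with it in initiation, 13 were tested, 1 was higher without α-amanitin and 0 lower (11.1% and 1.13% of all genes tested), with a median difference of 0.37, equal to that of all genes. The gene called was Eif3a, for a scaffold subunit of eIF3 (226 ± 47.8 against 96.0 ± 41.1 FPKM, SD, n = 3 each, adjusted p = 0.0348 by limma), and scaling by the median of ratios over genes took its adjusted p to 0.0725. Eif1, whose product works beside eIF1A in scanning, was at 406 ± 109 and 329 ± 148 FPKM (adjusted p = 0.513), and Eif5, the GTPase-activating factor, at 287 ± 76.4 and 181 ± 72.2 FPKM (adjusted p = 0.195), SD with n = 3 each and limma for both.

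The two-cell experiment addressed the same question in younger recipients. Here the members were detected in each of the 12 libraries, and again the untreated libraries lay above the treated ones. Gm2016 was at 240, 127 and 78.8 FPKM in the untreated set without R and at 116, 393 and 315 FPKM in that with R, against 4.24, 6.57 and 4.64 FPKM and 0.397, 12.4 and 1.05 FPKM with α-amanitin. Gm5662 went with it closely, at 73.9 to 370 FPKM (median 187) without α-amanitin and at 0.572 to 15.2 FPKM (median 4.98) with it. The ratio of Gm5662 to Gm2016 within a library was 0.838 to 1.02 without α-amanitin and 0.817 to 1.44 with it.

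Gm8332 was at 83.7 to 229 FPKM (median 181) without α-amanitin and at 5.15 to 21.8 FPKM (median 11.9) with it. Its ratio to Gm2016 was 0.553 to 1.14 in the untreated libraries but 0.660 to 13.0 in the treated ones. No 50-base window of Gm8332 is its own, so a single 50-base stretch cannot place a read on this gene. Whether read pairs could do so was not examined. Eif1a was at 141, 75.2 and 66.1 FPKM in the untreated set without R and at 105, 88.3 and 95 FPKM in that with R. With α-amanitin it was at 11.5, 13.4 and 17.7 FPKM in the set without R and at 0.0444, 3.14 and 1.34 FPKM in that with R. The treated libraries of the set with R were thus the 3 lowest for Eif1a.

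These FPKM gave ratios of the group means of 43.4 for Gm2016, 37.1 for Gm5662, 13.2 for Gm8332 and 12.1 for Eif1a. Scaled to the 47 spike-in RNAs found in each library, which made up 2.38% to 6.26% of the untreated and 6.54% to 11.3% of the treated libraries, the ratios were 118, 102, 34.1 and 30.3. On the log2 scale after this scaling, the differences without minus with α-amanitin were 6.44 ± 0.66 (SE) for Gm2016, 6.28 ± 0.67 for Gm5662, 4.99 ± 0.60 for Gm8332 and 5.13 ± 0.66 for Eif1a. The median difference of all 17196 genes tested was 1.49 after this scaling, 0.67 on the FPKM as deposited and 0.24 with scaling by the median of ratios over genes. For 4 of 4 members each untreated library lay above each treated one, as for 35.4% of all genes tested, from which nothing is read for the same reason as above.

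The size of the difference was not the same in the sets of libraries. From FPKM as deposited, the ratio of the means of Eif1a was 6.64 in the set without R (94.0 ± 40.7 against 14.2 ± 3.19 FPKM, SD, n = 3 each) and 63.7 in that with R (96.1 ± 8.45 against 1.51 ± 1.56 FPKM). For Gm2016 the ratio was 28.9 (149 ± 82.9 against 5.15 ± 1.24 FPKM) and 59.7 (275 ± 143 against 4.61 ± 6.73 FPKM). The difference between the sets was not tested, since the names do not tie the sets to the early and late recipients.

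In the two-cell embryos each of the other 13 chromosome 12 genes passed the filter, and 13 had higher levels in the untreated group by limma, where 71.4% of all genes tested were called in that direction and 1.63% in the other, and 13 changed at least 4-fold, where 34.2% of all genes did. Their median difference was 4.63 against 1.49 for all genes after scaling to spike-ins. It was 3.52 against 0.67 on FPKM as deposited and 2.81 against 0.24 with median-of-ratios scaling. In each of these 13 were called higher, where 71.4%, 38.9% and 21.9% of all genes tested were. As above, these genes share sequence with the members and are no independent evidence of their response. Gm8300 was at 103 to 330 FPKM (median 211) without and at 0.587 to 10.3 FPKM (median 3.99) with α-amanitin (log2 difference 6.64 ± 0.62, adjusted p = 4.04e-06 by limma).

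Gm5788, which had overlapped in the four-cell recipients, was at 381, 403 and 263 FPKM in the untreated set without R and at 425, 640 and 694 FPKM in that with R. With α-amanitin it was at 113, 172 and 183 FPKM in the set without R and at 10.1, 6.66 and 7.10 FPKM in that with R. The untreated libraries lay above the treated ones (log2 difference 4.93 ± 0.91, adjusted p = 0.000262 by limma). In the set without R alone the difference was 1.97 ± 0.40 (adjusted p = 0.00646) and in that with R alone 7.89 ± 0.29 (adjusted p = 6.31e-07), by limma with n = 3 against 3.

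Eif1ax was at 20.2 to 46.1 FPKM without α-amanitin and at 4.57 to 34.4 FPKM with it. Its groups overlapped on this scale and its call depended on the scaling: the log2 difference was 2.40 ± 0.57 (adjusted p = 0.00149 by limma) after scaling to spike-ins, 1.11 ± 0.50 (adjusted p = 0.0765) on FPKM as deposited and 0.35 ± 0.33 (adjusted p = 0.41) with median-of-ratios scaling. The same 13 initiation factor genes were called higher without α-amanitin in 13 of 13 cases after scaling to spike-ins, in 9 on FPKM as deposited and in 7 with median-of-ratios scaling, with 0 called lower. Of all genes tested, 71.4%, 38.9% and 21.9% were called higher under these scalings. The median difference of the 13 genes was 3.42, 2.04 and 1.23, against 1.49, 0.67 and 0.24 for all genes. Scaled to spike-ins, 8 of the 13 were called higher in the set without R alone and 13 in that with R alone. Of all genes, 4207 of 14285 and 11612 of 14387 were. The median differences in these sets were 1.52 and 4.91, against 0.88 and 2.57 for all genes. Eif1ax differed by 1.25 ± 0.41 and 3.54 ± 0.32 (SE).

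**Figure D3:**
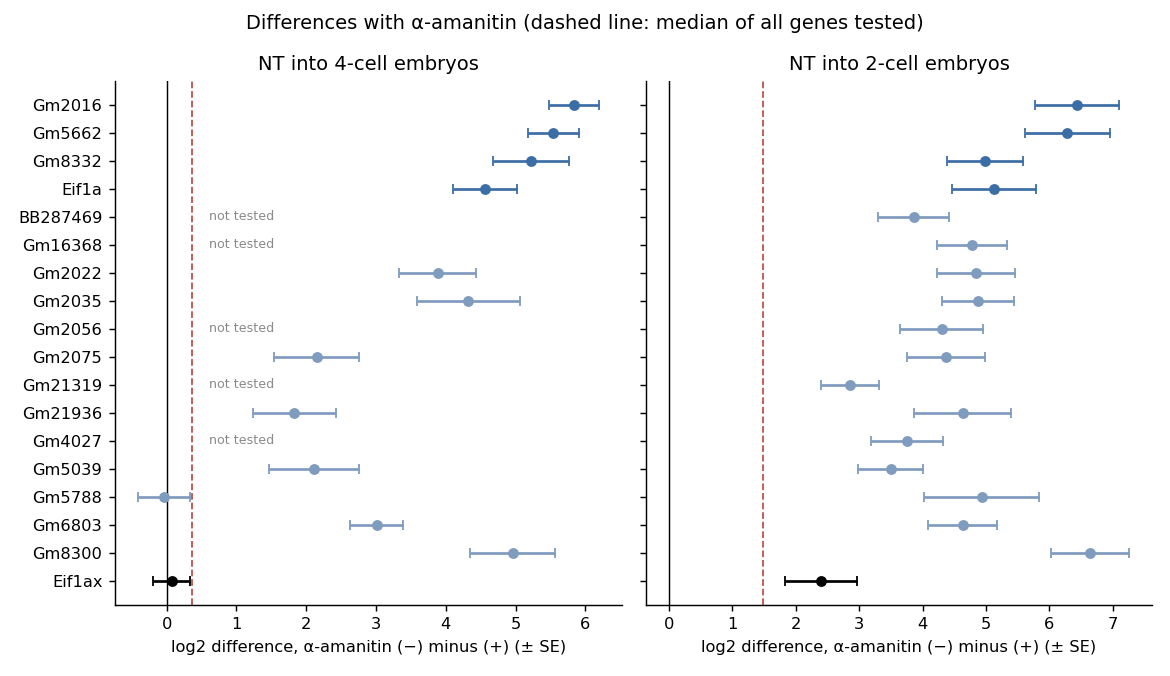
Log2 difference without minus with α-amanitin (x axis, log2(FPKM + 1), points with SE) of the 4 members (dark blue), the other 13 chromosome 12 genes (light blue) and Eif1ax (black) in NT into four-cell (left, FPKM as deposited) and two-cell embryos (right, scaled to spike-ins), with the median of all genes as a dashed line. Gm5788 and Eif1ax lie near 0 in the left panel (−0.04 and 0.07), and 5 genes there did not pass the filter. The panels are scaled differently, so their values are not set against each other.

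Of the 11 other protein-coding genes between the members or within 500000 bases of the outermost of the 3, 9 were tested in each comparison with α-amanitin. In four-cell recipients 2 were higher without α-amanitin, Alkbh1 (a nucleic acid demethylase, 10.3 ± 4.32 against 1.33 ± 0.707 FPKM, SD, n = 3 each, adjusted p = 0.0187 by limma) and Snw1 (a splicing factor, 28.1 ± 9.17 against 8.38 ± 4.16 FPKM, adjusted p = 0.0415 by limma), and 0 were lower (11.1% and 1.13% of all genes tested). With median-of-ratios scaling 1 was higher (7.69% of all genes tested). In two-cell recipients 6 were higher, namely Sptlc2, Alkbh1, Slirp, Snw1, Gm16381 and Gm2001, with log2 differences from 1.92 to 5.24, and 0 were lower, where 71.4% of all genes tested were called higher, so nothing particular to the neighbours is read from this count. The split was 5 higher and 3 lower on FPKM as deposited (38.9% and 8.51% of all genes tested) and 3 and 3 with median-of-ratios scaling (21.9% and 14.2%). The 3 others were Oog1, an oocyte gene, and Gm2042 and Gm10436, which had lower untreated than treated means. Of the 50-base windows of Gm2042, 93.1% also occur in another gene and 76.4% in Gm10436, so Gm2042 and Gm10436 are not independent measurements. Oog1 was at 35.3 ± 10.7 FPKM without and 301 ± 241 FPKM with α-amanitin (SD, n = 6 each), a log2 difference of −2.60 ± 0.58 on FPKM as deposited (adjusted p = 0.00378 by limma) but of −1.21 ± 0.59 after scaling to spike-ins (adjusted p = 0.0719). Gm2042 and Gm10436 had an adjusted p of 0.0768 and 0.0592 after scaling to spike-ins and of 0.00389 and 0.00476 on FPKM as deposited, all by limma. In the set with R alone, scaled to spike-ins, 6 neighbours were called higher and 3 lower, again Oog1, Gm2042 and Gm10436. There 11612 and 759 of all 14387 genes were called higher and lower. In the set without R alone 4 neighbours were higher and 0 lower, as were 4207 and 110 of 14285 genes.

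The replication experiment did not use α-amanitin, and its contrast took no part in choosing the members. Gm2016 was at 69.7, 233 and 98.6 FPKM in DR and at 1927, 108 and 21.0 FPKM in D, in the libraries D1, D4 and D5. Gm5662 was at 59.7, 230 and 79.4 FPKM in DR and at 1767, 93.3 and 19.0 FPKM in D. Gm8332 was at 45.4, 91.8 and 218 FPKM in DR and at 2902, 29.7 and 18.2 FPKM in D. For all 3 genes group D thus held both the highest library, D1, and the lowest, D5, with the DR libraries in between.

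Eif1a did not share this spread, with 214, 175 and 161 FPKM in DR and 130, 223 and 205 FPKM in D, where D1 was the lowest of the 6. The means were 183 ± 27.1 and 186 ± 49.3 FPKM (SD, n = 3 each). Eif1ax was also level, at 25.5 to 40.8 FPKM in DR and 38.8 to 43.5 FPKM in D.

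None of the members was called between DR and D, and neither was any of the 14570 genes tested (0% called by limma, with 88 genes at an unadjusted p under 0.05). After scaling to the 19 spike-ins found in each library, the log2 differences DR minus D were −2.21 ± 2.41 (SE) for Gm2016, −2.24 ± 2.41 for Gm5662, −1.99 ± 2.40 for Gm8332 and −1.64 ± 2.41 for Eif1a (adjusted p = 0.713 each, by limma), where the median of all genes was −1.41. The factors of this scaling ran from 0.0945 in D1 to 5.65 in D5, and on the FPKM as deposited, where the median of all genes was 0.02, the differences were −0.50 ± 1.46, −0.52 ± 1.48, −0.29 ± 1.79 and 0.01 ± 0.26. Without D1, the difference on FPKM as deposited was 1.27 for Gm2016 (adjusted p = 0.874), 1.26 for Gm5662 (adjusted p = 0.879) and 2.02 for Gm8332 (adjusted p = 0.873), by limma, so the direction of the chromosome 12 members depended on this library. With SEs of this size a difference of several fold between DR and D was not detectable for the members on chromosome 12.

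D1 was high for the whole cluster. All 16 Eif1a-like genes of chromosome 12 had their highest value of the 6 libraries in D1, and 16 of 16 lay at least 4-fold above the median of the other 5, as did 400 of the 14570 genes (2.75%). On the log2 scale, Gm2022 lay 6.51 above that median (1800 against 18.8 FPKM), Gm5039 6.28 (690 against 7.92 FPKM), Gm8332 5.97, Gm5662 4.46, Gm2016 4.27 and Gm5788 3.12 (788 against 90.0 FPKM), while the median over all genes was −0.04. For Eif1a the difference was −0.65. Together the 16 genes took 15845 RPM in D1, against 165 to 1316 in the other 5 libraries. Gm5039 and Gm21319, which share few windows with other genes, were also far above the other libraries (690 against 2.09 to 24.6 FPKM, and 65.8 against 0.548 to 6.18 FPKM). In the other 5 libraries of the table between 0 and 3 of the 16 genes lay 4-fold above the median of the remaining libraries. The share of reads on spike-ins was 0.0181% in D1, the lowest of the 6, where the others had 0.0448% to 0.776%, and the part of this in the result was not tested.

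**Figure D4:**
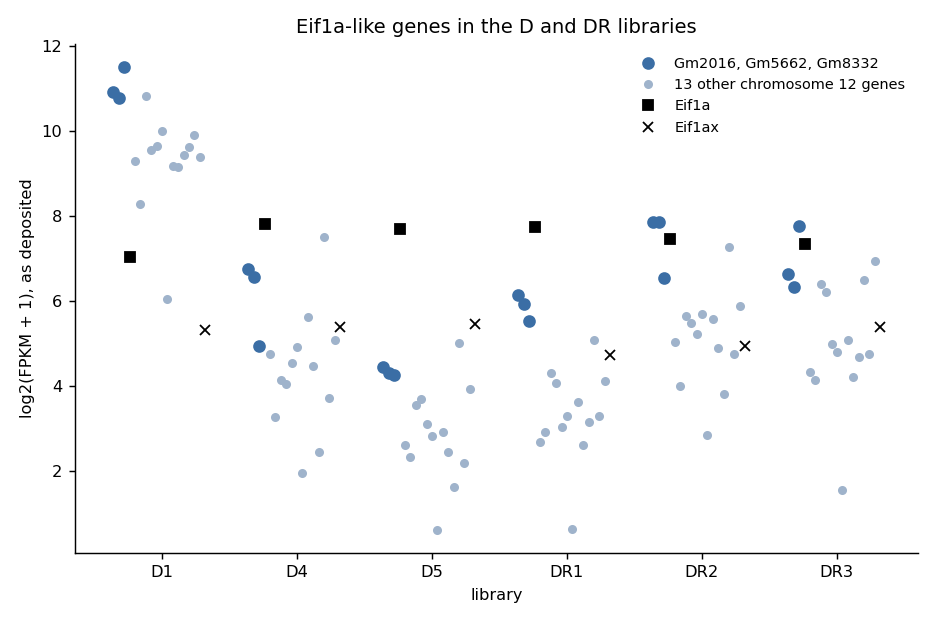
Log2(FPKM + 1), as deposited, of Gm2016, Gm5662 and Gm8332 (blue), the other 13 chromosome 12 genes (light blue), Eif1a (squares) and Eif1ax (crosses) in the 3 D and 3 DR libraries (x axis). All 16 chromosome 12 genes are highest in D1, where Eif1a (130 FPKM) is at its lowest.

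The order of the members is given table by table, since each table was normalised separately and levels were not tested across them. In the untreated four-cell NT embryos of the C2C12 table Eif1a was the highest (239 ± 55.7 FPKM), ahead of Gm2016 (62.1 ± 4.89 FPKM) and Gm5662 (52.2 ± 1.84 FPKM), with Gm8332 ranging across both. In untreated two-cell NT embryos the means were 212 ± 125 FPKM for Gm2016, 203 ± 121 for Gm5662, 164 ± 68.3 for Gm8332 and 95.1 ± 26.3 for Eif1a (SD, n = 6), and the first 3 did not differ beyond their spread. The ratio of Gm2016 to Eif1a was 0.230 to 0.327 in the 3 untreated libraries of the C2C12 table and 0.326 to 1.33 in DR. It was 0.102 to 14.8 in D (0.102 and 0.485 without D1) and 1.11 to 4.45 in the 6 two-cell libraries. The last of these depends on the gene model of Eif1a, which is longer in the two-cell table. On the shorter model of the other tables, with all reads kept, Eif1a would stand at 138 ± 38.1 FPKM in untreated two-cell embryos (SD, n = 6), and the ratio would be 0.764 to 3.08, below 1 in 2 of the 6 libraries.

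FPKM of Eif1a rest on a gene model of 2879 bases in the C2C12 and replication tables and of 4168 bases in the two-cell table, so values in RPM are given as well. In untreated four-cell NT embryos Eif1a took 503 to 788 RPM in the C2C12 table, 464 to 615 in DR and 374 to 642 in D, and in untreated two-cell NT embryos 276 to 587 RPM, so the ranges overlap. The 16 chromosome 12 genes together took 277 to 392 RPM in the untreated four-cell embryos of the C2C12 table, 367 to 1316 in DR and 165 to 15845 in D (165 and 684 without D1). In untreated two-cell embryos they took 841 to 2590 RPM, a range that overlaps that of DR but not that of the C2C12 table. It overlaps the range of D only through D1, with no D library inside it. The 3 members on chromosome 12 held 56.9% to 82.4% of the reads of the 16 genes in the untreated C2C12 table, 44.7% to 68.9% in DR, 48.4% to 54.9% in D and 37.0% to 56.8% in untreated two-cell embryos. All values of the C2C12 table are whole reads, as were 40.0% to 50.5% of those of a library in the other tables, and the part of this in these levels was not tested.

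Across the groups, the mean of Gm2016 was lowest in four-cell embryos with α-amanitin (0.122 FPKM), then in two-cell embryos with α-amanitin (4.88), and then in untreated four-cell embryos of the C2C12 table (62.1), DR (134), untreated two-cell embryos (212) and D (686). The place of D rests on library D1 at 1927 FPKM. Without D1 the other 2 libraries of D, which lie far apart (108 and 21.0 FPKM for Gm2016), averaged 64.6 FPKM for Gm2016, 56.2 for Gm5662 and 23.9 for Gm8332, below the means of DR. The ranges of DR, untreated two-cell embryos and D overlap. Since each table was normalised separately, this order of the groups is a description only and was not tested. The order of the group means of Gm5662 was the same. Over the 24 libraries, the genes outside the lists used here whose log2(FPKM + 1) was most like the mean of the 3 chromosome 12 members were Gm5541 (Pearson r = 0.923), Usp17lb (0.913), Gm9131 (0.910), Gm12183 (0.906) and Tdpoz4 (0.902), among 9497 genes. This is a description over libraries that share tables and treatment. On the same measure Eif1a had r = 0.749 and Eif1ax r = 0.223. Usp17lb was at 7 to 33.5 FPKM in untreated four-cell embryos, at 0 in those with α-amanitin, at 523 FPKM in the highest D library and at 11.6 to 185 FPKM in untreated two-cell embryos.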

How the data were processed

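RNA-seq libraries (SMART-seq v4, Nextera XT, paired-end, no strand information) were trimmed by the authors with Trimmomatic, Trim Galore and Cutadapt, mapped with STAR to mm10 and counted per gene with featureCounts. The versions and the treatment of reads that map to several genes are not given in the sources used here. The tables hold FPKM that the authors calculated per kilobase of gene model and relative to the counted reads of the library, without spike-in scaling. Reads per library were recovered from the size of 1 read, which is exact for the C2C12 table (values within 0.01 of a whole number) and approximate for the others, and these depths set the precision. Groups came from sample and column names. A further 4 columns of the replication table were left out because no group matches their names. The oryx experiment was not used here.

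Tests used limma (version 3.58.1, R version 4.3.3) with its trend option, applied to log2(FPKM + 1), and Benjamini-Hochberg adjustment over all genes with at least 1 FPKM in at least 3 libraries. A gene was called at an adjusted p under 0.05. P-values measure the spread between pools of embryos. In the replication and two-cell tables FPKM were first scaled by the median of ratios over spike-ins found in each library, the filter being applied before scaling. The C2C12 table lists 0 spike-ins. Coding sequences of GENCODE vM21 were compared with edlib 1.3.9.

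The members and lists were chosen with earlier results of these data known. Genes were named by a rule: the 4 members, other Eif1a-like genes, protein-coding neighbours within 500000 bases, 13 initiation factor genes and the 5 genes most like the chromosome 12 members over 24 libraries. Eif1a-like genes were to be found by protein identity, which was replaced, after the files were seen, by a coding sequence at least 80% identical to a member. Gm5788, Eif3a, Alkbh1, Snw1 and Oog1 were singled out within these lists after their values were seen.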

Additional observations from a re-analysis of the deposited data

Results flagged for a closer look

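In the two-cell experiment, 36 groups of 6 libraries were searched for a library far from the others, by the gap to its nearest neighbour over the range of the group, and 2 were found. Chance alone gives about 1 in 20 such groups. Gm5662 was at 15.2 FPKM in 1 library with α-amanitin of the set with R (RAm2), where the other 5 lay between 0.572 and 5.98 FPKM. The same library was also the highest of its group for Gm2016, at 12.4 FPKM. Gm21319 was at 3.9 FPKM in 1 library with α-amanitin of the set without R (Am2), where the other 5 lay between 0.0261 and 0.728 FPKM. Without RAm2 the log2 difference of Gm5662 was 6.58 on the scale used for the report.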

How the results depend on the processing

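A fit with a replicate block was made for the two-cell table, whose untreated and treated columns share numbers within each set. It called 11937 genes against 12557 and called 13 of the other Eif1a-like genes as before. Each block holds a library of each treatment, so the differences of the members could not change, and nothing is read from them here. Deviations of same-numbered libraries from their group means correlated at 0.08 or less, too little to treat the numbers as pairs, although 5 of the 6 untreated libraries correlated best with their own number, a hint from the data that the labels do not speak to. No paired analysis was possible for the C2C12 table, because its columns carry no replicate numbers that both groups share, nor for DR and D, whose columns share 1 number. The alternative with protein identity of 80% was not run, since no protein sequences were used here.

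In four-cell NT embryos 1205 genes were called, against 732 with a pseudocount of 0.1 FPKM and 284 without a filter on low values, and 63 (without S7) to 1493 (without S16) when 1 library was left out. Leaving out each untreated library gave the lowest counts, where a gene found in 2 libraries cannot pass the filter. There 0 of the other Eif1a-like genes were called, and 5 without S16, against 4. With a pseudocount of 0.1 the differences of Gm2016, Gm5662 and Gm8332 were 8.54, 8.19 and 8.50. With 1 library left out they ran from 5.75 to 5.98, from 5.45 to 5.73 and stayed at 5.22, over the 3 treated libraries, since without an untreated one these genes did not pass the filter. Gm8332 could not move there, being at 0 in each treated library. Eif1a ran from 4.11 to 5.04.

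Between DR and D, 0 genes were called, and 0 to 1 (without D5) with 1 library left out, while 0 of the other Eif1a-like genes were called throughout. Leaving out 1 library took Gm2016 from −5.24 (without D5) to 0.80 (without D1), Gm5662 from −5.25 to 0.78, Gm8332 from −4.86 to 1.56 and Eif1a from −3.20 to −0.59. On FPKM as deposited Eif1a was at 0.01, and without D1, an alternative chosen after seeing the data, Gm2016, Gm5662 and Gm8332 were at 1.27, 1.26 and 2.02.

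In two-cell NT embryos 12557 genes were called, 6211 with median-of-ratios scaling, 8158 on FPKM as deposited and 4317 in the set without R alone (chosen after seeing the data), and 11608 to 12693 with 1 library left out. Median-of-ratios scaling gave 4.67 for Gm2016, 4.48 for Gm5662, 2.91 for Gm8332 and 3.45 for Eif1a, and FPKM as deposited gave 3.69 for Gm8332. In the set without R the differences were 5.19 for Gm2016, 3.64 for Gm8332 and 3.36 for Eif1a, and in that with R 7.68, 6.34 and 6.89. With 1 library left out Gm2016 ran from 6.13 to 6.83, Gm5662 from 5.97 to 6.67, Gm8332 from 4.75 to 5.31 and Eif1a from 4.71 to 5.43, and 13 other Eif1a-like genes were called each time. The causes of these shifts were not tested. Members kept their direction in both comparisons with α-amanitin under each alternative run. Nothing is read from this, since they were chosen with this contrast known and their untreated libraries all lay above the treated ones.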
